A study of Mus musculus with 4 samples.

Results

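The cells described here were chosen by raw unique molecular identifier (UMI) counts in single lymph node stromal cells. A cell was taken when at least 3 of 9 genes were detected (Inmt, Car3, Cyp2f2, Stc1, Kcnk3, Fgf10, Ano1, Aox3 and Astn2). Cells with any UMI of Tnfsf11, Pi16, Pecam1 or Ptprc were left out, as were cells with over 2 UMIs of Ccn3 and Has1 together or over 3 UMIs of Ptgs2 and Il6 together. The rule found 3877 of the 46638 cells past the cell filter. They are called Inmt-gated cells after the gene detected most often in 3 of the 4 libraries, because Car3, the first gene of their working name, was detected in 11.4% of them or fewer in every library. Their place in the node was not measured, so a medullary position could not be checked.

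The study asks how Notch2 in lymph node fibroblasts bears on the niches of T cells. Axillary, brachial and inguinal nodes of female C57BL/6 mice of 12 weeks were digested, and live cells negative for CD45 and CD31 were sorted. Ccl19-Cre is active in fibroblastic reticular cells of lymph nodes. Notch2 cKO 1 came from Notch2 fl/fl mice that carried both Ccl19-Cre and the R26R-EYFP reporter (6 mice pooled), with 395 Inmt-gated of 7817 cells. Notch2 cKO 2 came from Ccl19-Cre x Notch2 fl/fl mice without the reporter (3 mice pooled), with 1206 of 12754 cells. Control 1 came from Ccl19-Cre x R26R-EYFP mice, which carry Cre and reporter but no floxed Notch2 (6 mice pooled, not littermates of the Notch2 cKO mice), with 654 of 9053 cells. Control 2 came from Notch2 fl/fl littermates without Cre (3 mice pooled), with 1622 of 17014 cells. Libraries numbered 1 form batch 1 and those numbered 2 form batch 2, so the control genotype, the reporter and the batch cannot be told apart.

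Lymph node fibroblasts build the scaffold on which lymphocytes move. T-zone reticular cells secrete Ccl19 and Ccl21a, which guide T cells and dendritic cells carrying the receptor Ccr7, and Il7, which sustains T cells. The medulla, through which lymph leaves the node, holds reticular cells known for Cxcl12, the ligand of Cxcr4, and for contact with plasma cells and macrophages. Adventitial cells around vessels carry Cd34, Ly6c1 and Pi16. Notch2 is a receptor cut upon ligand binding; its released part joins the DNA-binding protein Rbpj and induces genes such as Hes1.

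Depth differed mainly by batch, and total UMIs per library ran between 21533049 and 119002408. The Inmt-gated cells had a median of 2657 UMIs in Notch2 cKO 1 and 1948 in control 1, and of 5853.5 in Notch2 cKO 2 and 5568 in control 2. In each library this lay below the median of the other fibroblast-type cells (2998 in Notch2 cKO 1, 2176 in control 1, 8400.5 in Notch2 cKO 2 and 6776 in control 2). Each library pools mice and counts as 1 replicate, so n = 2 per genotype. Pairs of libraries shared 21 to 57 barcodes, at most 0.546% of those of the first library of a pair. Levels below are in CPM, the usual scaling of a gene's summed UMIs to all UMIs of the same cell set in 1 library.

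Of the 9 genes that chose the cells, Inmt was the most widely detected in 3 libraries and Ano1 in control 2. Inmt, encoding indolethylamine N-methyltransferase (chr6:55170626-55175043, minus strand, mm10), had at least 1 UMI in 94.7% and 88.6% of Inmt-gated cells in Notch2 cKO 1 and 2 and in 94.0% and 82.9% in control 1 and 2. Its level was 1194 and 1202 CPM in Notch2 cKO, against 1318 and 793 CPM in control. In the other fibroblast-type cells Inmt lay at 210 and 329 CPM in Notch2 cKO and at 249 and 312 CPM in control, so the gene was not confined to the gate. These values follow from the rule and were not tested.

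**Figure D1:**
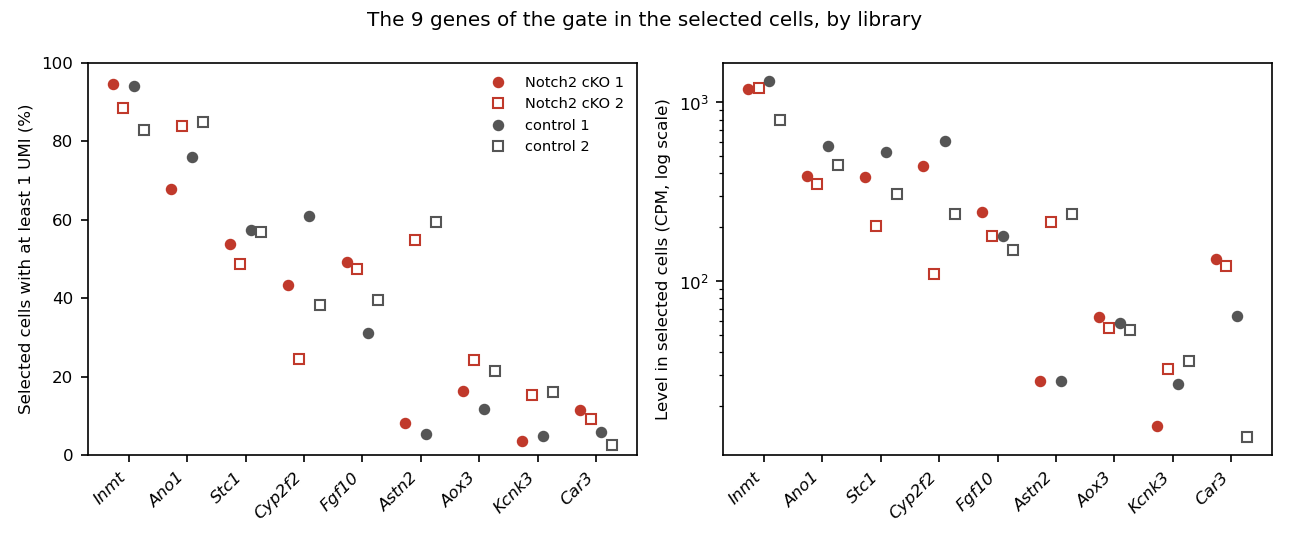
The 9 genes of the gate in the Inmt-gated cells of each library, as the percentage of cells with at least 1 UMI (left) and as CPM on a log axis (right); circles are batch 1 and squares batch 2. Inmt and Ano1 are detected most often, Car3 in 2.47% to 11.4% of cells, and Astn2 separates the batches at 27.5 and 27.8 CPM against 214 and 239 CPM.

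Ano1, a calcium-activated chloride channel, was detected in 67.8% and 84.0% of the cells in Notch2 cKO and in 76.0% and 85.0% in control. Stc1, which encodes the secreted glycoprotein stanniocalcin-1, reached 384 and 204 CPM in Notch2 cKO, against 527 and 306 CPM in control. Cyp2f2, a cytochrome P450 enzyme, stood at 438 and 109 CPM in Notch2 cKO and at 604 and 238 CPM in control. Within each batch Stc1 and Cyp2f2 were lower in Notch2 cKO, although the control of batch 2 lay below the Notch2 cKO of batch 1. Fgf10, a fibroblast growth factor ligand, stood at 244 and 179 CPM in Notch2 cKO and at 179 and 150 CPM in control. Car3, a cytosolic carbonic anhydrase, stood at 132 and 121 CPM in Notch2 cKO and at 63.9 and 13.4 CPM in control, from 45 and 112 cells in Notch2 cKO and from 38 and 40 cells in control. Car3 was thus carried by few cells. Aox3, an aldehyde oxidase, lay between 53.4 and 62.7 CPM in all 4 libraries, and Kcnk3, a background potassium channel, between 15.5 and 35.8 CPM. Astn2, known from migrating neurons, was at 214 and 239 CPM in the libraries of batch 2 and at 27.5 and 27.8 CPM in those of batch 1.

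Droplets also hold free RNA. Schwann-type cells, chosen by 3 or more of 8 glial genes, should lack Inmt and were found only in batch 2. Inmt was detected in 21.7% of 92 such cells in Notch2 cKO 2 and in 9.09% of 110 in control 2, at median depths of 3437 and 3067 UMIs. Stc1 was detected in 2.17% and 5.45% of them, Cyp2f2 in 2.17% and 3.64%, and Ano1 in 8.70% and 17.3%, in the same order. Inmt was detected in 88.6% and 82.9% of the Inmt-gated cells of the same libraries, which were deeper. Car3 in Schwann-type cells, at 2.17% in Notch2 cKO 2 and 0% in control 2, can be set beside 9.29% and 2.47% of Inmt-gated cells. The count of 0 in 110 cells allows a share of up to 2.73%. In control 2 the 40 Inmt-gated cells with Car3 held 133 of its UMIs.

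Most Inmt-gated cells passed the rule narrowly in batch 1. Exactly 3 of the 9 genes were detected in 63.0% and 50.4% of them in Notch2 cKO and in 63.6% and 44.8% in control, and 5 or more in 8.61% and 25.7% in Notch2 cKO and in 8.87% and 28.9% in control. The excluding genes then decided membership. They removed 40.7% and 63.2% of the cells with at least 3 genes in Notch2 cKO and 28.8% and 71.3% in control, so most candidates in batch 2 were dropped. Tnfsf11, the ligand known as RANKL and a mark of marginal reticular cells below the capsule, was detected in 22.4% and 43.6% of those candidates in Notch2 cKO and in 10.99% and 37.1% in control. Over 3 UMIs of Ptgs2 and Il6, genes of inflammation and cell stress, were found in 21.2% and 19.6% of the candidates in Notch2 cKO and in 17.95% and 44.7% in control.

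Levels just outside and just inside the limit of the rule were set side by side; for the gate genes they rise with the number of gate genes by construction. With only 2 of the 9 genes, just outside it, Inmt stood at 863 and 512 CPM in Notch2 cKO and at 936 and 297 CPM in control. With 3 genes, just inside it, Inmt stood at 1134 and 925 CPM in Notch2 cKO and at 1258 and 616 CPM in control. Cyp2f2 stood at 63.7 and 5.45 CPM in Notch2 cKO and 259 and 30.2 CPM in control with 2 genes, and at 322 and 19.3 CPM in Notch2 cKO and 501 and 88.2 CPM in control with 3. Ccl21a, no gene of the rule, ran the other way, at 3942 and 10293 CPM in Notch2 cKO and 3502 and 6867 CPM in control with 2 genes, and at 1965 and 6137 CPM in Notch2 cKO and 2540 and 3199 CPM in control with 3. Cxcl12 was highest with 5 or more genes in 3 libraries, at 11049 CPM in Notch2 cKO 1, 5516 CPM in Notch2 cKO 2 and 5171 CPM in control 2, and stood at 7930 CPM in control 1.

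The Inmt-gated cells made up 5.05% of kept cells in Notch2 cKO 1 (95% exact interval 4.58% to 5.56%) and 9.46% in Notch2 cKO 2 (8.95% to 9.98%). They made up 7.22% in control 1 (6.70% to 7.78%) and 9.53% in control 2 (9.10% to 9.98%). The share was thus lower in Notch2 cKO in batch 1, by a factor of 0.70, and nearly equal in batch 2, at a factor of 0.992. Before the exclusions 8.52% and 25.7% of kept cells had at least 3 of the 9 genes in Notch2 cKO, against 10.2% and 33.3% in control. The exclusions then removed a larger part in control 2 than in Notch2 cKO 2. The mean log2 ratio was -0.26. A two-sided exact permutation test of the difference in mean share, which ignored the batches, gave p = 0.667. With 2 libraries against 2 it cannot go below 0.333. With cells of at least 2000 UMIs thinned to 2000, the shares were 3.75% and 8.42% in Notch2 cKO and 4.81% and 9.68% in control. Thinning left out the shallower cells, 18.2% and 4.3% of kept cells in Notch2 cKO and 43.0% and 7.86% in control. Without Notch2 cKO 1 the log2 ratio turned to 0.19, and without Notch2 cKO 2 it was -0.72. Intervals cover counting error only.

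**Figure D2:**
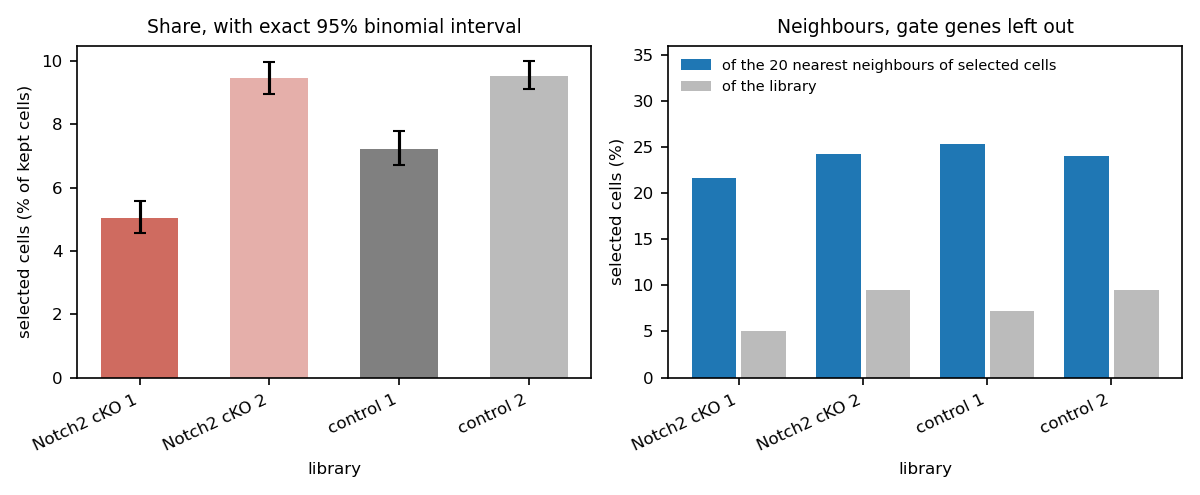
Left, Inmt-gated cells as percent of kept cells in each library with the exact 95% binomial interval. Right, Inmt-gated cells among the 20 nearest neighbours of Inmt-gated cells, in percent, beside their percentage in the library, with the gate genes left out of the distances; neighbours hold 21.6% to 25.3% Inmt-gated cells in the 4 libraries.

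Whether the rule collects similar cells was asked with all gate genes left out of the distances. Among the 20 nearest neighbours of an Inmt-gated cell, 21.6% and 24.2% were Inmt-gated in Notch2 cKO and 25.3% and 24.0% in control. These percentages lay 4.27 and 2.56 times above the cells' share of the library in Notch2 cKO and 3.50 and 2.52 times in control. Most neighbours were therefore not Inmt-gated. Cells with 2 gate genes made up 28.5% and 22.2% of neighbours in Notch2 cKO and 27.3% and 18.7% in control. In the libraries they were 831 of 7817 and 2074 of 12754 kept cells in Notch2 cKO. In control they were 1137 of 9053 and 2912 of 17014, so in control 2 their part of the neighbours was close to their part of the library. T-zone reticular-type cells were chosen by Ccl19 and Ccl21a among other fibroblast-type cells with fewer than 2 gate genes and no Tnfsf11 or Pi16. They were 11.48% and 8.62% of neighbours in Notch2 cKO and 16.4% and 7.32% in control. Of the libraries they made up 46.4% and 32.4% in Notch2 cKO and 49.2% and 22.9% in control. Similar cells with 2 or more gate genes are counted elsewhere, so their low share among neighbours is partly set by the gates. Candidates dropped for Tnfsf11 made up 7.66% and 20.7% of neighbours in Notch2 cKO and 4.01% and 19.7% in control. Their shares of the libraries were 1.91% and 11.2% in Notch2 cKO and 1.12% and 12.3% in control.

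The Inmt-gated cells were then compared with the 33354 other fibroblast-type cells of the same libraries, which have at least 3 of 7 fibroblast genes. Outside the genes used for gating, 821 of 15305 genes were higher in Inmt-gated cells (5.36% of those tested) and 1334 were lower (8.72%), by edgeR's quasi-likelihood test at a Benjamini-Hochberg adjusted p under 0.05 with the library as a block. Genes tied to the gate genes in single cells can follow the choice of cells, so the comparison describes what the gate collects. Without TMM scaling 1118 genes were higher and 995 lower, which moved the higher share of calls to 52.9%, against 38.1% with it.

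The 12 named higher genes included several for secreted or matrix proteins. Ptn, encoding the growth factor pleiotrophin, stood at 117 and 169 CPM in Inmt-gated cells of Notch2 cKO and at 1217 and 549 CPM in those of control, against 19.9 and 63.4 CPM in other fibroblast-type cells of Notch2 cKO and 280 and 258 CPM in those of control. Ptn was higher in Inmt-gated cells in every library (log2 1.67, SE 0.20, adjusted p = 0.000734). Sned1, an extracellular matrix protein, had 573 and 360 CPM in Inmt-gated cells of Notch2 cKO and 766 and 403 CPM in those of control, against 106 and 127 CPM in other fibroblast-type cells of Notch2 cKO and 171 and 191 CPM in those of control (log2 1.73, SE 0.20, adjusted p = 0.000521). Fbln1, a basement membrane and elastic fibre protein, was higher by 1.43 on the log2 scale, Gdf10, a bone morphogenetic protein relative, by 1.43, and Slit3, a guidance ligand, by 1.42. Rspo3, which amplifies Wnt signals, had 62.7 and 78.4 CPM in Inmt-gated cells of Notch2 cKO and 69.5 and 41.4 CPM in those of control, against 12.3 and 28.1 CPM in other fibroblast-type cells of Notch2 cKO and 16.5 and 21.8 CPM in those of control (log2 1.54, SE 0.20, adjusted p = 0.00111).

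The other 6 named higher genes included those with the highest log2 differences. Lsamp and Negr1, cell surface proteins of the IgLON family, were higher by 1.85 and 1.46 on the log2 scale, and the protocadherin Pcdh9 by 1.39. Ldb2, a cofactor of LIM-domain proteins, was higher by 1.83, the galactosyltransferase B3galt1 by 1.64, and Acss3, an acyl-CoA synthetase of mitochondria, by 1.61. All 6 had higher levels in batch 2 than in batch 1 within each genotype, Acss3 by the least. B3galt1 is an example, with 23.2 and 13.9 CPM in Inmt-gated cells of Notch2 cKO 1 and control 1 and 324 and 260 CPM in those of Notch2 cKO 2 and control 2. The direction within libraries was the same in all 4 for these genes. No source used here says whether intronic reads were counted, and the part of that in the batch difference was not tested.

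Chemokines and other T-zone products were lower. Ccl21a had 1936 and 5068 CPM in Inmt-gated cells of Notch2 cKO and 2103 and 2514 CPM in those of control, against 9682 and 12950 CPM in other fibroblast-type cells of Notch2 cKO and 11390 and 8583 CPM in those of control (log2 -2.02, SE 0.15, adjusted p = 6.57e-05). The 2 sets of cells did not overlap. Reads of Ccl21a can also come from near-identical copies of the gene, so its count is uncertain. Of 13 tested T-zone factors, 10 were lower and 0 higher, with a median log2 difference of -1.23 beside -0.02 over all genes tested. Ccl19 stood at 510 and 1034 CPM in Inmt-gated cells of Notch2 cKO and 1234 and 1387 CPM in those of control, against 1067 and 2034 CPM in other fibroblast-type cells of Notch2 cKO and 4054 and 3566 CPM in those of control (log2 -1.33). Bst1, a surface enzyme of stromal cells, differed by -1.55 on the log2 scale, Grem1, an inhibitor of bone morphogenetic proteins, by -1.34, and Il7 by -0.93.

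Other lower genes had roles in adhesion, signalling and scavenging. Thbs4, a thrombospondin of the matrix, differed by -2.87 on the log2 scale, and Ackr3, a scavenging receptor for Cxcl12, by -2.32. Stmn2, a tubulin-binding protein, had 45.5 and 102 CPM in Inmt-gated cells of Notch2 cKO and 50.7 and 65.2 CPM in those of control, against 286 and 290 CPM in other fibroblast-type cells of Notch2 cKO and 441 and 271 CPM in those of control (log2 -2.26). Dab1, an adaptor of reelin signalling, differed by -2.31, Ubd, a ubiquitin-like protein, by -2.20, Ly6h by -2.19, Tacr1, the receptor of substance P, by -2.16, and the adhesion protein Nfasc by -2.06. Pdlim3, a protein of actin fibres, differed by -1.97, the kinase Prkcb by -1.95, and the protease inhibitor Serpinb6b by -1.92. Serpinb6b has close paralogs that reads may share. All 24 genes named in this comparison by rule lost their call when the library was not used as a block.

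**Figure D3:**
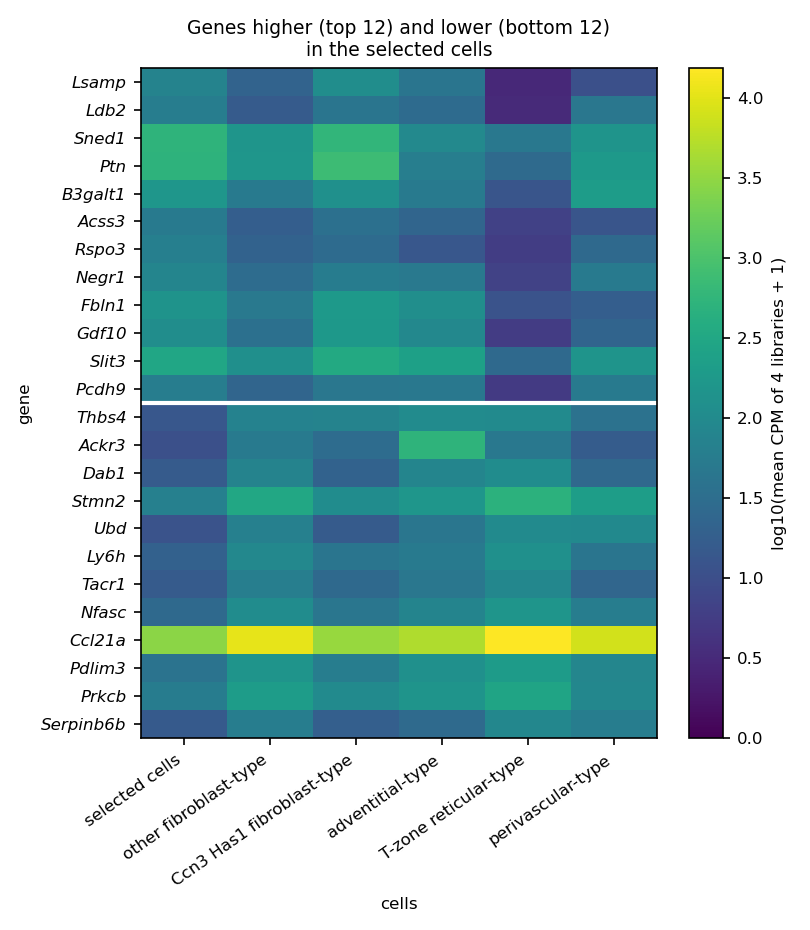
Mean CPM over 4 libraries, as log10 of CPM plus 1, of the 12 named genes higher (top) and the 12 lower (bottom) in Inmt-gated cells than in other fibroblast-type cells, across 6 sets of cells. Ccl21a is brightest in T-zone reticular-type cells, and Ptn and Sned1 are as bright in Ccn3 Has1 fibroblast-type as in Inmt-gated cells.

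Enzymes that act on small molecules were split in direction. Of 27 tested, 12 were higher and 5 lower in Inmt-gated cells, with a median of 0.29. Cyp2e1, a cytochrome P450 of alcohol and drug metabolism, had 10.3 and 6.27 CPM in Inmt-gated cells of Notch2 cKO and 40.3 and 37.4 CPM in those of control, against 1.53 and 2.04 CPM in other fibroblast-type cells of Notch2 cKO and 5.67 and 17.5 CPM in those of control (log2 1.67, adjusted p = 0.00399). Cyp1b1 was higher by 0.44. The aldehyde dehydrogenase Aldh3a1 differed by -2.01. Of 13 retinoid genes 3 were higher, such as Rbp4 (1.10), and 4 lower, such as the vitamin A receptor Stra6 (-2.50) and Rdh10 (-0.99).

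Among growth factors and morphogen signals more genes were higher than lower. Of 28 secreted growth factors and hormones, 10 were higher and 2 lower (median 0.28). Vegfd, a ligand of lymphatic endothelium, had 61.0 and 55.9 CPM in Inmt-gated cells of Notch2 cKO and 41.0 and 36.3 CPM in those of control, against 23.7 and 23.0 CPM in other fibroblast-type cells of Notch2 cKO and 10.3 and 18.2 CPM in those of control (log2 1.27, adjusted p = 0.000506). Angptl4, an inhibitor of lipoprotein lipase, was higher by 0.90, while Stc2 differed by -2.14. Among 29 Wnt and bone morphogenetic protein genes, 11 were higher, such as Id4 (1.31) and Fst (1.36), and 7 lower, such as Bmp4 (-1.13). Of 22 hedgehog and positional genes 7 were higher and 1 lower. Gli1, a transcriptional target and effector of hedgehog signals, had 30.1 and 14.1 CPM in Inmt-gated cells of Notch2 cKO and 32.6 and 24.8 CPM in those of control, against 6.69 and 5.70 CPM in other fibroblast-type cells of Notch2 cKO and 14.3 and 14.7 CPM in those of control (log2 1.15, adjusted p = 0.00318). The hedgehog co-receptor Cdon was higher by 0.60.

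Of 17 factors for plasma cells and macrophages, 7 were lower and 1 higher, and 9 passed in neither direction. Cxcl12 was the 1 higher gene; it is named because it was alone, after its values were seen. Cxcl12 had 9808 and 4424 CPM in Inmt-gated cells of Notch2 cKO and 8220 and 4537 CPM in those of control, against 6016 and 3939 CPM in other fibroblast-type cells of Notch2 cKO and 5271 and 3762 CPM in those of control (log2 0.40, SE 0.10, adjusted p = 0.0258). The chemokine Cxcl9 differed by -1.08 and Cd200, a ligand that restrains myeloid cells, by -1.17. Of 10 B-zone factors 3 were higher, such as Enpp2 (0.73), and 4 lower, such as Cr2 (-1.08).

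Several further lists were described in the same way. For these lists and those above, the rates over all tested genes were 5.36% higher and 8.72% lower. Of 16 adventitial progenitor genes 7 were lower and 0 higher, such as Dpp4 (-3.35) and Efhd1 (-3.22), which stood at 0.473 to 2.08 CPM and at 0 to 0.859 CPM in Inmt-gated cells; cells with Pi16 had been removed from them by the rule. Of 13 genes of antigen presentation 6 were lower, such as Cd74 (-0.70). Of 17 ion channels and transporters 4 were higher, such as the bicarbonate transporter Slc4a4 (1.09), and 5 lower, such as the water channel Aqp1 (-1.86). Of 12 Notch receptors, ligands and cofactors 2 were higher, Dlk1 and Maml3, and Dll1 was lower, at 4.29 and 5.32 CPM in Inmt-gated cells of Notch2 cKO and 1.39 and 3.02 CPM in those of control, against 15.2 and 9.64 CPM in other fibroblast-type cells of Notch2 cKO and 8.004 and 9.96 CPM in those of control. Of 16 immediate-early genes, which digestion can induce, 4 were higher, led by Egr2 (0.77). Of 11 cell cycle genes 0 passed by edgeR.

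A second comparison was with the 609 Ccn3 Has1 fibroblast-type cells, which lie across one limit of the rule, with at least 3 UMIs of Ccn3 and Has1 together. Among the neighbours of Inmt-gated cells they were no more than 0.747% in any library, 0.720 to 1.38 times their share of the library. They counted 65 and 145 cells in Notch2 cKO and 56 and 343 in control. By edgeR with the library as a block, 383 of 10595 genes were higher in Inmt-gated cells (3.61%) and 511 lower (4.82%). Most tested matrix genes were lower, with 16 of 18 lower and 0 higher and a median of -0.52 beside 0.04 over all genes tested. Fn1, fibronectin, had 709 and 477 CPM in Inmt-gated cells of Notch2 cKO and 592 and 380 CPM in those of control, against 1509 and 915 CPM in Ccn3 Has1 cells of Notch2 cKO and 1314 and 994 CPM in those of control (log2 -1.14, adjusted p = 3.11e-09). Fbn1, fibrillin, differed by -1.17.

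Adventitial genes separated the same sets. Of 13 adventitial progenitor genes 11 were lower and 0 higher in Inmt-gated cells (median -1.53), and of 12 adventitial matrix genes 10 were lower. Against other fibroblast-type cells, 4 of the same 12 matrix genes were higher and 3 lower. Cd34 had 65.3 and 42.0 CPM in Inmt-gated cells of Notch2 cKO and 73.6 and 41.3 CPM in those of control, against 232 and 167 CPM in Ccn3 Has1 cells of Notch2 cKO and 374 and 196 CPM in those of control (log2 -2.13, SE 0.12, adjusted p = 7.75e-14). Cd248, or endosialin, differed by -2.25, Ly6c1 by -2.43, Igfbp6 by -2.30, Fndc1 by -2.39 and Fgl2 by -2.34. Ly6c1 shares sequence with a close paralog. On the higher side stood Slc5a3, an inositol transporter (1.38), the tight junction protein Cldn1 (1.34), the secreted peptide precursor Ecrg4 (1.33) and Cxcl13, which attracts B cells. Cxcl13 had 776 and 1904 CPM in Inmt-gated cells of Notch2 cKO and 815 and 1463 CPM in those of control, against 90.3 and 1233 CPM in Ccn3 Has1 cells of Notch2 cKO and 480 and 510 CPM in those of control (log2 1.27, adjusted p = 1.22e-05), but with DESeq2 its adjusted p was 0.126. Of 8 B-zone factors 4 were higher, and of 11 contractile genes 7 were higher, such as Lmod1 (1.23). Perivascular-type cells had been left out of the Ccn3 Has1 cells but not of the Inmt-gated cells, which can raise contractile genes here. Cxcl12 was higher by 0.71.

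Immunoglobulin transcripts also stood higher, with Jchain at 4.79 and Igkc at 4.28 on the log2 scale. The 3 cells with most held 50% and 94.6% of the immunoglobulin UMIs of Inmt-gated cells in Notch2 cKO 1 and 2 and 96.1% and 55.1% in control 1 and 2. With DESeq2 the adjusted p of Jchain was 0.0913. Immunoglobulin genes are therefore given below without further description.

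Markers of other cell types were counted in the Inmt-gated cells. The perivascular gate, which needs 3 of 8 mural genes and no Pdgfra, also took in 1.01% and 13.5% of Inmt-gated cells in Notch2 cKO and 3.67% and 13.9% in control. The fibroblast-type gate took in 98.2% and 84.1% in Notch2 cKO and 92.5% and 82.9% in control. The summed level of 6 pericyte genes was 871 and 1149 CPM in Inmt-gated cells of Notch2 cKO and 1121 and 1082 CPM in those of control, against 707 and 891 CPM in other fibroblast-type cells of Notch2 cKO and 1009 and 1001 CPM in those of control. These 6 genes belong to the perivascular gate, whose cells were left out of the other fibroblast-type cells but not of the Inmt-gated cells. The higher sums can therefore follow from the gates and were not tested. Among 11 contractile genes 3 were higher than in other fibroblast-type cells, Lmod1, Actg2 and Myl9. With only the Inmt-gated cells that pass the fibroblast-type gate, 2 were higher and 2 lower, and Actg2 lost its call (log2 0.30, adjusted p = 0.541).

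Some adipocyte genes moved with the gate too. The 10 adipocyte markers summed to 1090 and 843 CPM in Inmt-gated cells of Notch2 cKO and 589 and 692 CPM in those of control, against 872 and 637 CPM in other fibroblast-type cells of Notch2 cKO and 704 and 445 CPM in those of control. Of the 5 tested 3 were higher: the lipid droplet protein Plin1 (2.07), the transcription factor Pparg (2.14) and the fatty acid carrier Fabp4 (1.95). Adipoq, the defining adipocyte hormone, was at 0 in Notch2 cKO 1, control 1 and control 2. Fabp4 had 6.01 and 132 CPM in Inmt-gated cells of Notch2 cKO and 3.47 and 131 CPM in those of control, so it was a gene of batch 2; with fibroblast-type members alone its adjusted p was 0.0652. Markers of T cells (4.17 to 8.06 CPM), macrophages (13.2 to 28.2 CPM), Schwann cells (4.86 to 35.7 CPM) and skeletal muscle (0 to 2.58 CPM) were low in every library. The 8 epithelial and mesothelial markers summed to 0 and 53.9 CPM in Inmt-gated cells of Notch2 cKO and 67.4 and 2.72 CPM in those of control, against 1.09 and 17.9 CPM in other fibroblast-type cells of Notch2 cKO and 7.36 and 22.6 CPM in those of control. Of 3 tested against Ccn3 Has1 cells all 3 were higher. The part of these cells in the results was not tested beyond the values given.

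Within the Inmt-gated cells, the genotypes were compared with the batch as a block. Notch2, the targeted receptor (chr3:98013527-98150361, plus strand, mm10), had 17.2 and 36.2 CPM in Notch2 cKO and 29.9 and 54.1 CPM in control. In each batch the Notch2 cKO value lay below the control value, but the difference did not pass the test (log2 -0.75, SE 0.24, adjusted p = 0.324, edgeR). In other fibroblast-type cells Notch2 stood at 19.3 and 40.0 CPM in Notch2 cKO and at 39.7 and 59.3 CPM in control. The floxed exons are not given in the labels and the libraries read 3′ ends, so these counts do not check the deletion.

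Hes1, the transcriptional repressor induced by Notch, had 79.0 and 98.1 CPM in Notch2 cKO and 167 and 219 CPM in control. The groups did not overlap (log2 -1.21, SE 0.22, adjusted p = 0.0231, edgeR). Its call was lost with DESeq2 (adjusted p = 0.0557) and with at least 4 of the 9 genes (adjusted p = 0.0608). Of 9 tested Notch targets Hes1 was the 1 that passed as lower, and 0 passed as higher. All 9 had a log2 difference below 0, and the median was -0.54 beside 0.02 over all genes tested. Notch3, itself a Notch target in mural cells, had 27.5 and 133 CPM in Notch2 cKO and 91.0 and 180 CPM in control (adjusted p = 0.163). Of 11 Notch receptors and ligands 0 passed by edgeR.

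Of 12728 genes tested, 50 were higher in Notch2 cKO (0.393%) and 31 lower (0.244%). Of these 81 genes, 76 had 1 sign in both batches and 67 had groups that did not overlap in CPM. The test itself favours genes whose batches agree, so neither count is separate evidence. Among the 6529 genes at 20 CPM or more, 54.6% had 1 sign in both batches. Across those genes the log2 differences of the 2 batches correlated at 0.199. The share of all tested genes without overlap was not counted. The fit had 1 residual degree of freedom. DESeq2 called 26 genes, no TMM scaling gave 95 higher and 34 lower, and the fibroblast-type members alone gave 129 higher and 95 lower. Leaving out any 1 library ends the pairing by batch and leaves 1 library in a genotype, so the calls could not be checked in that way.

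Ptn and Lepr led the lower genes by level. Ptn (chr6:36714929-36810220, minus strand, mm10) had 117 and 169 CPM in Notch2 cKO and 1217 and 549 CPM in control, with all Notch2 cKO values below all control values (log2 -2.59, SE 0.36, adjusted p = 0.00394). Lepr, the leptin receptor, a mark of bone marrow stroma that also makes Cxcl12 (chr4:101717404-101815352, plus strand), had 304 and 190 CPM in Notch2 cKO and 1130 and 682 CPM in control (log2 -1.95, SE 0.27, adjusted p = 0.00394). Vtn, vitronectin of the matrix (chr11:78499091-78502324, plus strand), had 82.5 and 135 CPM in Notch2 cKO and 278 and 331 CPM in control (log2 -1.59, SE 0.23, adjusted p = 0.00603). Cyp2e1 had 10.3 and 6.27 CPM in Notch2 cKO and 40.3 and 37.4 CPM in control (log2 -2.48, adjusted p = 0.00164).

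Further genes were lower in Notch2 cKO in both batches. Apoc1, an apolipoprotein, had 73.0 and 30.9 CPM in Notch2 cKO and 161 and 133 CPM in control (log2 -1.75). Ntng1, a netrin family adhesion protein, had 6.01 and 33.1 CPM in Notch2 cKO and 50.7 and 78.9 CPM in control (log2 -1.81). Ralgps2, an exchange factor for Ral proteins, differed by -1.84 and Bloc1s1 by -1.72. With DESeq2 the adjusted p was 0.0702 for Ralgps2 and 0.389 for Bloc1s1. Igha, an immunoglobulin gene, was also lower.

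Promoters of the 3 lower genes with the Rbpj core motif are shown because Notch2 acts through Rbpj. The 250 bases before each start site were read from RefSeq (GRCm38.p6), and capitals mark TGGGAA on either strand, TTCCCA when read on the opposite one. The regions are chr6:36810180-36810429 (minus strand) for Ptn, chr4:101717157-101717406 and chr4:101717656-101717905 (plus strand) for 2 start sites of Lepr, and chr11:78498870-78499119 (plus strand) for Vtn.
Ptn: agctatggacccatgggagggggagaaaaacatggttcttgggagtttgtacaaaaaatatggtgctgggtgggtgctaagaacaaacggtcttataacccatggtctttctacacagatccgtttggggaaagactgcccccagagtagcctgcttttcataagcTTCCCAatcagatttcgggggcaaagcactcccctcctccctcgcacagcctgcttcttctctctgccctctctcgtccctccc
Lepr, first start site: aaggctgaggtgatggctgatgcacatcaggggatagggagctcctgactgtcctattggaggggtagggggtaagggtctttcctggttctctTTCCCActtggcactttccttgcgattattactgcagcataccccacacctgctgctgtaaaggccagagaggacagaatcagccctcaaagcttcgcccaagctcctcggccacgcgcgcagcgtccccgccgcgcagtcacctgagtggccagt
Lepr, second start site: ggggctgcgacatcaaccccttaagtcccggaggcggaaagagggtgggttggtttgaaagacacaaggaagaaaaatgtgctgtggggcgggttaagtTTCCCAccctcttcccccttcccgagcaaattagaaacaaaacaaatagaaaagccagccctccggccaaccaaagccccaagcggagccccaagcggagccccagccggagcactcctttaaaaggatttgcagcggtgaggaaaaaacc
Vtn: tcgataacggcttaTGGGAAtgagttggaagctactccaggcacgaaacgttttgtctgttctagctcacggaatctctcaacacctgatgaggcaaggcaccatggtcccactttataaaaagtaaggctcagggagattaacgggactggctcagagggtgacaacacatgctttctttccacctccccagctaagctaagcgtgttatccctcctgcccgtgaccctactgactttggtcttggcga
Each window held 1 match. Of the 9 named lower genes 7 had an entry and 3 held the motif, and of the 10 named higher genes 6 had an entry and 2 held it, Pdlim3 and Ltc4s. The motif occurred in 24.1% of 27025 genes and in 21.6% of 32851 promoter entries, so a match is common and describes these letters only.

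Cilp, cartilage intermediate layer protein, had the largest log2 difference of the named higher genes outside the immunoglobulin genes. It (chr9:65265180-65280605, plus strand, mm10), had 282 and 203 CPM in Notch2 cKO and 14.6 and 15.1 CPM in control (log2 3.85, SE 0.26, adjusted p = 5.28e-06). Sfrp1, a secreted Wnt inhibitor (chr8:23411502-23449632, plus strand), had 279 and 210 CPM in Notch2 cKO and 50.01 and 53.9 CPM in control (log2 2.11, SE 0.24, adjusted p = 0.00104). For both genes the Notch2 cKO libraries lay well above the control libraries in either batch. Adamts15, a matrix protease, had 52.4 and 23.8 CPM in Notch2 cKO and 5.56 and 4.64 CPM in control (log2 2.53). Ncam1, a neural cell adhesion molecule, had 110 and 114 CPM in Notch2 cKO and 22.2 and 26.9 CPM in control (log2 2.08), and Ltc4s, leukotriene C4 synthase, had 187 and 184 CPM in Notch2 cKO and 43.8 and 45.3 CPM in control (log2 1.97).

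**Figure D4:**
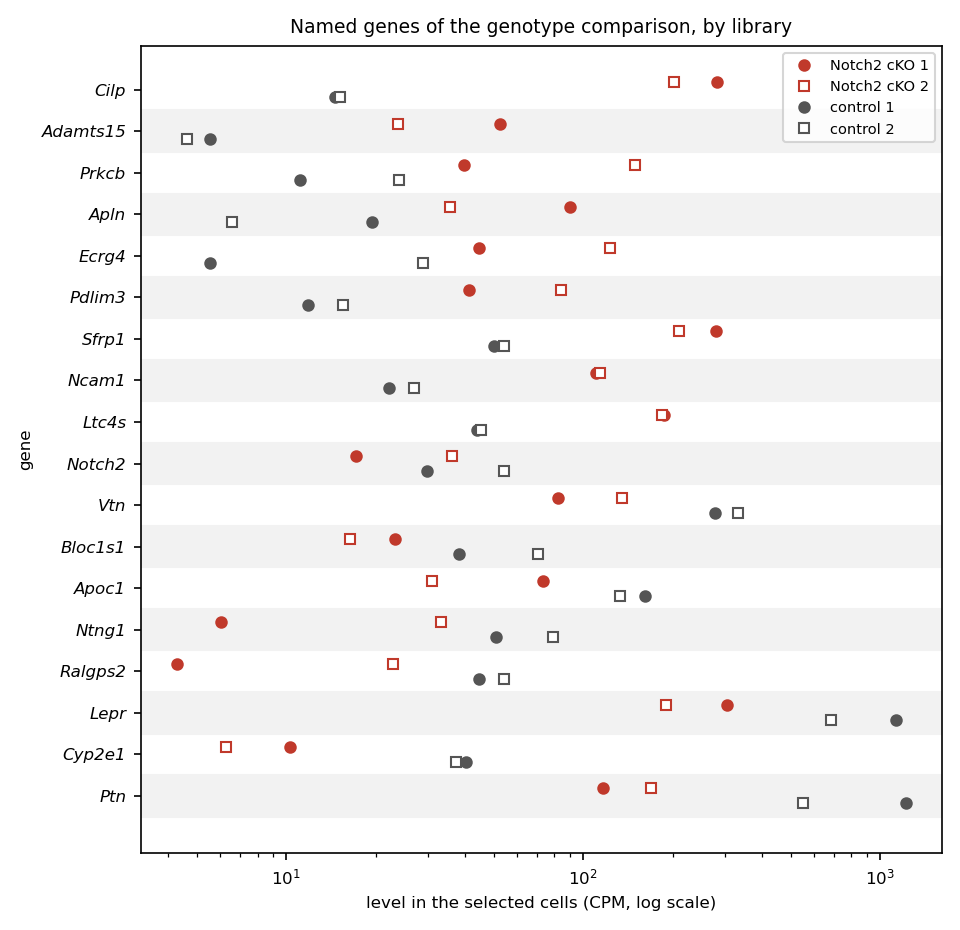
CPM on a log axis, in the Inmt-gated cells of each library, of the genes named by rule between genotypes and of Notch2; circles are batch 1 and squares batch 2. Cilp in Notch2 cKO (282 and 203 CPM) lies farthest above control (14.6 and 15.1 CPM), and Ptn in Notch2 cKO (117 and 169 CPM) lies below control (1217 and 549 CPM).

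Apln, the peptide ligand apelin, had 90.2 and 35.6 CPM in Notch2 cKO and 19.4 and 6.55 CPM in control (log2 2.25). Ecrg4 had 44.7 and 123 CPM in Notch2 cKO and 5.56 and 28.9 CPM in control (log2 2.19). Prkcb had 39.5 and 149 CPM in Notch2 cKO and 11.1 and 24.0 CPM in control (log2 2.29), and Pdlim3 had 41.2 and 84.2 CPM in Notch2 cKO and 11.8 and 15.5 CPM in control (log2 2.14). Prkcb and Pdlim3 were also among the genes lower in Inmt-gated than in other fibroblast-type cells. Their level in Inmt-gated cells of Notch2 cKO stayed below that of other fibroblast-type cells of Notch2 cKO, at 258 and 409 CPM for Prkcb and 192 and 280 CPM for Pdlim3. Ighg1, an immunoglobulin gene, completed the higher genes.

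Wnt and bone morphogenetic protein genes had 4 of 26 higher in Notch2 cKO and 0 lower. Beside Sfrp1 these included Bmp3 (24.1 and 43.4 CPM in Notch2 cKO, 7.64 and 10.1 CPM in control, log2 1.87) and Sfrp2 (67.0 and 51.7 CPM in Notch2 cKO, 39.6 and 12.0 CPM in control, log2 1.44). DESeq2 called 1 of the 26. Of 12 genes of antigen presentation 3 were higher and 0 lower. The invariant chain Cd74 had 714 and 479 CPM in Notch2 cKO and 298 and 142 CPM in control (log2 1.43, adjusted p = 0.0206), and H2-Aa and H2-Eb1 of class II were higher by 1.16 and 1.14. DESeq2 called 1 of these 12, Cd74. Dendritic and B cells also carry these genes. The cells were sorted against CD45 and had no Ptprc UMI. Even so, 0 and 5 Inmt-gated cells in Notch2 cKO and 2 and 4 in control held 1% or more immunoglobulin UMIs. The 6 dendritic cell markers summed to 15.5 and 69.1 CPM in Inmt-gated cells of Notch2 cKO and to 9.72 and 57.8 CPM in those of control, with Itgax at 0 in every library. The B and plasma cell markers summed to 54.1 and 139 CPM in Notch2 cKO and to 235 and 26.9 CPM in control. Their part in the result was not tested.

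Among 14 T-zone factors 1 was higher, Cxcl14 (2.08), and 2 were lower, Vtn and Cyp26b1, which degrades retinoic acid (-1.28). DESeq2 called 0 of the 14 higher and 1 lower. Ccl19 had 510 and 1034 CPM in Notch2 cKO and 1234 and 1387 CPM in control (log2 -0.93, adjusted p = 0.374). Of 8 retinoid genes 1 was higher, the retinal reductase Dhrs3 (1.17), and Cyp26b1 was lower. Of 25 secreted growth factors Apln was higher and Ptn lower; of 25 small-molecule enzymes Cyp2e1 was lower; of 12 adventitial matrix genes Fbln2 was higher (1.24); of 11 inflammatory genes Saa3 was higher (2.93); and of 11 complement genes C1rb was lower (-1.54). No gene passed by edgeR among 22 hedgehog and positional genes, 23 matrix genes, 17 plasma cell and macrophage factors, 13 adventitial progenitor genes, 9 B-zone factors and 14 contractile genes. A list of genes gained after Notch2 loss in other fibroblasts of these same libraries had 11 of 15 higher, and a list of genes lost there had 6 of 15 lower; both were chosen on these libraries and are not independent evidence. DESeq2 called 5 of the first list higher and 3 of the second lower.

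Whether the genotype difference itself differed between Inmt-gated and other fibroblast-type cells was tested with an interaction term. Of 15305 genes 5 had a higher difference in Inmt-gated cells (0.0327%) and 3 a lower one (0.0196%), and DESeq2 called 0. Of the 81 genes called within Inmt-gated cells, 3 passed this test. A gene that did not pass is not shown to respond alike. For Cilp the log2 difference within batches was 4.24 and 3.71 in Inmt-gated cells, against 4.51 and 3.18 in other fibroblast-type cells. For Ptn it was -3.38 and -1.70 in Inmt-gated cells, against -3.81 and -2.03 in other fibroblast-type cells. Both cell sets come from the same libraries.

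**Figure D5:**
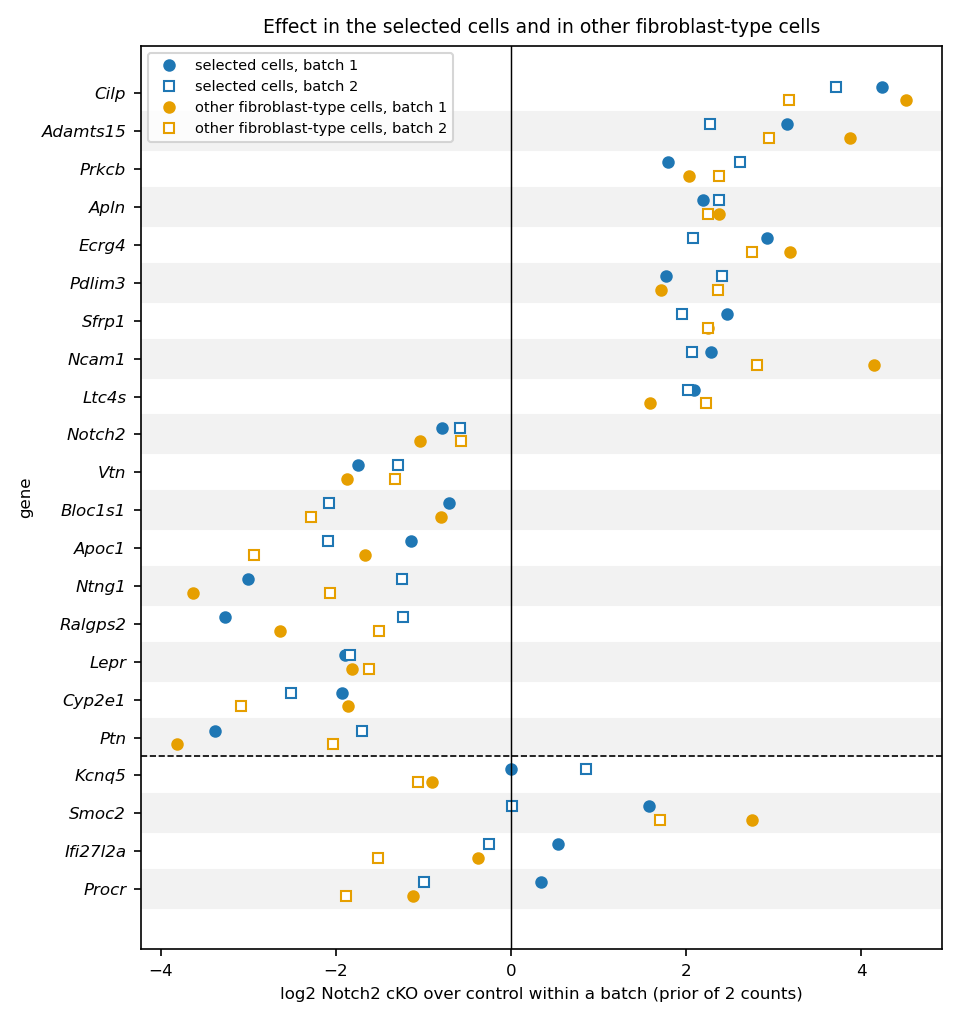
Log2 of Notch2 cKO over control within each batch, with a prior of 2 counts, in Inmt-gated cells (blue) and other fibroblast-type cells (orange); circles are batch 1 and squares batch 2. Genes above the dashed line were named within Inmt-gated cells and those below it were named for the difference; Smoc2 lies at 1.57 and 0.01 in Inmt-gated cells and further right in other fibroblast-type cells, at 2.75 and 1.71.

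Smoc2, a secreted matricellular protein, had 52.4 and 31.3 CPM in Inmt-gated cells of Notch2 cKO and 17.4 and 31.0 CPM in those of control, and 198 and 83.5 CPM in other fibroblast-type cells of Notch2 cKO and 29.3 and 25.6 CPM in those of control. Its genotype difference was thus smaller in Inmt-gated cells, by -1.65 on the log2 scale (SE 0.24, adjusted p = 0.0119, edgeR). With at least 4 of the 9 genes the adjusted p of Smoc2 was 0.112. Procr, the protein C receptor, had 98.8 and 70.8 CPM in Inmt-gated cells of Notch2 cKO and 77.8 and 141 CPM in those of control, and 84.4 and 63.0 CPM in other fibroblast-type cells of Notch2 cKO and 183 and 233 CPM in those of control (1.08, adjusted p = 0.0186). In Inmt-gated cells Procr was higher in Notch2 cKO in batch 1 and lower in batch 2, and Smoc2 was nearly equal in batch 2.

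Kcnq5, a potassium channel, had no UMI in the Inmt-gated cells of batch 1. In batch 2 it had 61.0 CPM in Inmt-gated cells of Notch2 cKO 2 and 33.5 CPM in those of control 2, against 4.62 CPM in other fibroblast-type cells of Notch2 cKO 2 and 9.67 CPM in those of control 2 (1.87, adjusted p = 0.0177). With fibroblast-type members alone its adjusted p was 0.217. Ifi27l2a, an interferon-induced gene, had 103 and 74.97 CPM in Inmt-gated cells of Notch2 cKO and 70.8 and 89.5 CPM in those of control. In other fibroblast-type cells it had 67.6 and 33.9 CPM in Notch2 cKO and 87.9 and 96.9 CPM in control. The difference of the effects was 1.07 (adjusted p = 0.0186, edgeR), and its adjusted p became 0.0503 with the stricter cell filter. In Inmt-gated cells Ifi27l2a was higher in Notch2 cKO in batch 1 and lower in batch 2. Ighg3 (9.89) was lost without cells in which immunoglobulin genes held 1% or more of UMIs (log2 0.99, adjusted p = 1.0). None of these 5 genes passed with DESeq2.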

How the data were processed

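Single-cell 3′ RNA libraries of lymph node stroma were analysed from the raw UMI counts per gene and barcode that the authors deposited. The file headers name Cell Ranger 5.0.1 for batch 1 and 7.1.0 for batch 2, while the submitters' processing notes name 5.0.1 and mm10. Per the labels' genotype, control 2 is Notch2 fl/fl without Cre, although its title names a Ccl19-Cre control.

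Cells with at least 500 genes, at least 1000 UMIs and at most 10% mitochondrial UMIs were kept. Scrublet (scanpy 1.11.5) marked 1 cell in Notch2 cKO 1 and 0 in the other libraries by its automatic threshold, so doublets were not removed; an alternative removed the highest scores of each library at a rate of 0.8% per 1000 cells. Counts were summed per library and cell set and tested with edgeR 4.0.16 (quasi-likelihood, TMM, Benjamini-Hochberg, threshold 0.05), with the library as a block between cell sets and the batch as a block between genotypes. The labels state the batches; deviations of same-batch libraries correlated at 0.773 across genes. DESeq2 1.42.0 was an alternative. The procedure was also run on simulated counts that held no library or batch effect on single genes. That run therefore does not cover the batch structure of these data. The 40 genes used for gating were left out of counts of calls between cell sets and for the difference of effects. Between genotypes only the 17 genes of the rule that chose the Inmt-gated cells were left out.

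Named genes were those with the largest log2 change past the test and 1 sign in every library or batch: 12 per direction at 50 CPM or more against other fibroblast-type cells, 6 against Ccn3 Has1 cells, 10 between genotypes at 20 CPM or more with Notch2, 6 of lowest p for the difference, and up to 4 per list. Ribosomal, mitochondrial, haemoglobin and predicted genes were passed over. A few genes that the rule picked are not reported here. The members and lists were chosen with earlier results of these data known. The added alternatives (members that pass the fibroblast-type gate, comparison cells with fewer than 2 gate genes, no cells rich in immunoglobulin) were chosen after seeing the data. Of 149 gene identifiers, 146 were found in GENCODE vM21 for mm10. Libraries pool mice, so no p-value measures the spread between mice. Between cell sets and for the difference of effects, edgeR's p-values rest on how the difference within libraries varied. Between genotypes they rest on how the difference varied between the batches. In each case edgeR shares its estimates of spread across genes. No source used here says whether intronic reads were counted.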

Additional observations from a re-analysis of the deposited data

Results flagged for a closer look

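The genotype difference differed between Inmt-gated and other fibroblast-type cells for 8 genes by the interaction term in edgeR, of which 6 are given here. On the log2 scale, Inmt-gated minus other fibroblast-type cells, it was -1.65 for Smoc2, 1.87 for Kcnq5, 1.07 for Ifi27l2a and 1.08 for Procr. For the immunoglobulin genes it was 9.89 for Ighg3 and -8.90 for Ighg2b. Ighg3 had 0 and 270 CPM in Inmt-gated cells of Notch2 cKO and 0 and 3.93 CPM in those of control. DESeq2 called 0 genes for this difference.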

How the results depend on the processing

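Without a block for library or batch, 0 genes passed by edgeR in each comparison. At an unadjusted p under 0.05 this left 369 higher and 595 lower genes against other fibroblast-type cells, 136 and 299 against Ccn3 Has1 cells, 83 and 59 between genotypes, and 13 and 14 for the difference of effects. Leaving out 1 library gave 1417 to 1682 genes against other fibroblast-type cells (2155 with all), 359 to 927 against Ccn3 Has1 cells (894 with all), 0 to 0 between genotypes (81 with all) and 97 to 178 for the difference of effects (8 with all). The log2 ratio of the share ran between -0.72 and 0.19. DESeq2 called 363 genes against Ccn3 Has1 cells, 26 between genotypes and 0 for the difference (105 higher and 61 lower unadjusted). Between genotypes, 129 genes passed without TMM scaling, 235 without a filter on low counts, 154 with the stricter cell filter and 224 with members that pass the fibroblast-type gate; without TMM the median log2 difference of all genes was 0.12, against 0.02 with it. For the difference, 136 passed without a filter on low counts, 128 with at least 4 of the 9 genes, 18 without cells of highest Scrublet score and 94 against cells with fewer than 2 gate genes. The cause was not tested. Leaving out 1 library, the differences of effects ran between -5.92 and 16.995 for Ighg3 and between -4.87 and 8.15 for Kcnq5. Of the values of single named genes under an alternative, 665 kept direction and call, 150 lost the call and 2 reversed. With 2 libraries per genotype and 1 residual degree of freedom, counts of calls between genotypes are imprecise, and genes of a few CPM rest on few UMIs in batch 1.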
